A study of Mus musculus with 12 samples.

Results

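The transmembrane and multiplexin collagens measured here are 5 genes, Col13a1, Col15a1, Col18a1, Col23a1 and Col25a1, of 23575 genes in the count tables. They were chosen by family together with a measured value, the much higher RNA count of Col13a1 at Week 3 than at Week 1. The differences in their own RNA between weeks are therefore described without a test. CpG methylation came from separate libraries that did not enter the choice, and it was tested. The cells were articular chondrocytes of C57BL/6J pups aged 5 to 6 days, taken from femoral head and tibial plateau cartilage. Every group had the same culture history: expansion as a monolayer in DMEM/F12 with 10% FBS, then 3D pellets in that medium with ascorbic acid and ITS, a supplement of insulin, transferrin and selenium. Pellets were harvested at Week 1 (day 7) or Week 3 (day 21), with no other treatment and no genetic change. RNA-seq and enhanced reduced representation bisulfite sequencing (ERRBS) each had 3 libraries per week, 12 in all. Separate cultures or animals are not stated for the replicates, and p-values therefore reflect only how far these samples spread, which may be technical.

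Collagens XIII, XXIII and XXV, encoded by Col13a1, Col23a1 and Col25a1, are membrane proteins whose triple-helical part lies outside the cell and can be cut off by furin-type convertases and other sheddases. Collagens XV and XVIII, the multiplexins, have interrupted triple helices and glycosaminoglycan chains, lie in and near basement membranes, and release endostatin-type fragments from their carboxyl ends when cut by proteases. Collagen XIII is known from the neuromuscular junction and other cell-matrix contacts and affects bone mass in mice, collagen XXIII binds an integrin, collagen XXV is known from motor innervation and amyloid plaques, collagen XV from muscle and small vessels, and collagen XVIII from many basement membranes.

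The promoters of 3 of the 5 genes are shown because they carry the RNA contrast (a large rise, a fall, and a level that overlapped between weeks) and because one gene has a pair of starts. Each runs from 250 bases before to 50 bases after a transcript start, 5′ to 3′ along the gene, from RefSeq on GRCm38.p6 (mm10), and capitals mark CpG, the dinucleotide whose methylation was measured. Col13a1 lies on the minus strand at chr10:61979059-61979358, Col15a1 on the plus strand at chr4:47207762-47208061, and Col18a1 on the minus strand at chr10:77166481-77166780 (upstream start) and chr10:77113656-77113955 (downstream start).
Col13a1: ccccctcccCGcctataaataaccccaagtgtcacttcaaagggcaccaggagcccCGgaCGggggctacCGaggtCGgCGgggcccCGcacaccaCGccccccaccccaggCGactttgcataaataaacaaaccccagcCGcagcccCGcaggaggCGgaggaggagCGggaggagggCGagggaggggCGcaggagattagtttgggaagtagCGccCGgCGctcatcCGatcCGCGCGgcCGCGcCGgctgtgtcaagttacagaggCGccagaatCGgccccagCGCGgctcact
Col15a1: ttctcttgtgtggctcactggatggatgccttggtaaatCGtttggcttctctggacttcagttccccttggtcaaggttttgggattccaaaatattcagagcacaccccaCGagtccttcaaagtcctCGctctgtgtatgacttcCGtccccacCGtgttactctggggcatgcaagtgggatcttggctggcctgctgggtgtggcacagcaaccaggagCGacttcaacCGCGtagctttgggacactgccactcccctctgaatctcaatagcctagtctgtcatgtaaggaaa
Col18a1 upstream start: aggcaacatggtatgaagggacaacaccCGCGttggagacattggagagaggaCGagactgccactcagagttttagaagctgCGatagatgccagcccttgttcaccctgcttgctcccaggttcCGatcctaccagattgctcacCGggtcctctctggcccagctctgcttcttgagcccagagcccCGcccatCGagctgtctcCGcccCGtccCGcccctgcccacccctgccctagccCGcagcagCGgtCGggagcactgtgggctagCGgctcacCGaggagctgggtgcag
Col18a1 downstream start: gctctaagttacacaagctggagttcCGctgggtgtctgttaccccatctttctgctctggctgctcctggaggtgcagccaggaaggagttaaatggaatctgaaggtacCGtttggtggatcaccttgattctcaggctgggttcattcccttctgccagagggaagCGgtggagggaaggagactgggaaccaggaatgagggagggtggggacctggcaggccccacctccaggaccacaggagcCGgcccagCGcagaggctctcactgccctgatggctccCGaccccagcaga

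The 300 bases held 29 CpGs at Col13a1, 16 at the upstream start of Col18a1, 8 at Col15a1 and 6 at the downstream start of Col18a1. Those of Col23a1 held 24 and those of Col25a1 held 23. The median over 32851 RefSeq promoters of the same length was 7, and 12.9% of them held at least as many CpGs as Col13a1. ERRBS reads DNA cut with MspI, whose site is CCGG on both strands. That site occurred 3 times at Col13a1, 5 times at Col23a1, once at Col25a1 and at each start of Col18a1, and not in these 300 bases of Col15a1. Of all promoters of this length, 52.8% held a CCGG.

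All 5 genes are long. Col13a1 spans chr10:61838234-61979108 (140.9 kb, 41 exons), Col15a1 chr4:47208012-47313165 (105.2 kb, 40 exons) and Col23a1 chr11:51289920-51583925 (294.0 kb, 29 exons). Col25a1 spans chr3:130180845-130599883 (419.0 kb, 38 exons). The Col18a1 transcript with the highest count spans chr10:77052179-77113705 (41 exons), and a second one begins farther upstream, at base 77166530. In the annotation, no exon of these genes overlapped an exon of another gene.

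Gene counts ranged from 14361717 to 19774665 per RNA-seq library. Median coverage at the CpG cytosines shared by all 6 ERRBS libraries was 17 to 66 reads. Intervals and floors are not given for sums of reads, since PCR reads are not independent molecules. The 8 chondrocyte markers were well above 1 CPM (counts per 1000000 counts) in every library, with summed levels of 17400 to 32300 CPM at Week 1 in replicates 2 and 1 and 34100 to 37200 CPM at Week 3. All 6 hypertrophic chondrocyte markers and all 7 osteoblast markers rose at Week 3 (edgeR), against 19.7% of all tested genes. In bulk pellets, fewer cells of a type and less RNA per cell cannot be told apart.

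Col13a1, the transmembrane collagen XIII, was close to absent at Week 1 and plainly present at Week 3. Replicates 1, 2 and 3 of Week 1 gave 5, 11 and 8 reads, and those of Week 3 gave 410, 617 and 478 reads. Scaled to library size, these were 0.302, 0.638 and 0.540 CPM and then 26.8, 33.0 and 29.2 CPM. The lowest library of Week 3 was far above the highest of Week 1. The mean went from 0.494 ± 0.173 to 29.67 ± 3.13 CPM (SD, n = 3), 59.2-fold on the fitted scale, a log2 change of 5.89. The Week 1 level rests on few reads. Leaving out 1 library at a time gave log2 changes from 5.63 to 6.14. That log2 change ranked 13 among 14323 tested genes and 1 among 41 tested collagen genes. Of those 41, 19 rose and 4 fell (edgeR), with a median log2 change of 0.34. The 41 include the 5 members, with Col13a1 among the 19 and Col18a1 among the 4. Of all tested genes, 19.7% rose and 17.8% fell.

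The other transmembrane collagens had low levels that overlapped between weeks. Col23a1 had 3.93, 5.63 and 4.12 CPM at Week 1 and 3.86, 4.66 and 3.48 CPM at Week 3. Replicate 2 was the highest library in each week. The means were 4.56 ± 0.93 and 4.00 ± 0.60 CPM (SD, n = 3), a log2 difference of −0.19, which was −0.00322 without Week 1 replicate 2. Col25a1 had 7.19, 5.11 and 10.1 CPM at Week 1 and 5.76, 5.03 and 5.00 CPM at Week 3. Week 1 libraries were spread widely, while those of Week 3 lay close together within the range of Week 1 or just below it. The means were 7.45 ± 2.49 and 5.26 ± 0.43 CPM (SD, n = 3). The log2 difference was −0.49, and −0.22 without Week 1 replicate 3. The 3 transcripts of Col25a1 in the tables shared nearly all reads, with 113 to 119 counts each in Week 1 replicate 1.

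The multiplexins differed from each other. Col18a1, the source of endostatin, had 154, 152 and 140 CPM at Week 1 and 88.7, 86.3 and 101 CPM at Week 3. All 3 libraries of Week 3 were below all 3 of Week 1. The mean went from 148.9 ± 7.57 to 92.1 ± 8.08 CPM (SD, n = 3), 1.62-fold lower, a log2 change of −0.69 that ranged from −0.77 to −0.65 when 1 library was left out. Col15a1, the closest relative of Col18a1, had 29.4, 36.9 and 34.2 CPM at Week 1 and 31.5, 56.4 and 32.3 CPM at Week 3. Week 3 replicate 2 stood above the other 5 libraries, which overlapped. The means were 33.49 ± 3.79 and 40.05 ± 14.12 CPM (SD, n = 3). The log2 difference was 0.26 with all libraries and −0.07 without Week 3 replicate 2.

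As a description only, since this contrast chose the set, the threshold used for all genes (edgeR, Benjamini-Hochberg adjusted p under 0.05) marked 2 of the 5, Col13a1 as higher and Col18a1 as lower. It marked 37.4% of all 14323 tested genes, 19.7% as higher and 17.8% as lower. The same 2 genes had weeks whose CPM did not overlap, as had 51.4% of all tested genes.

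**Figure D1:**
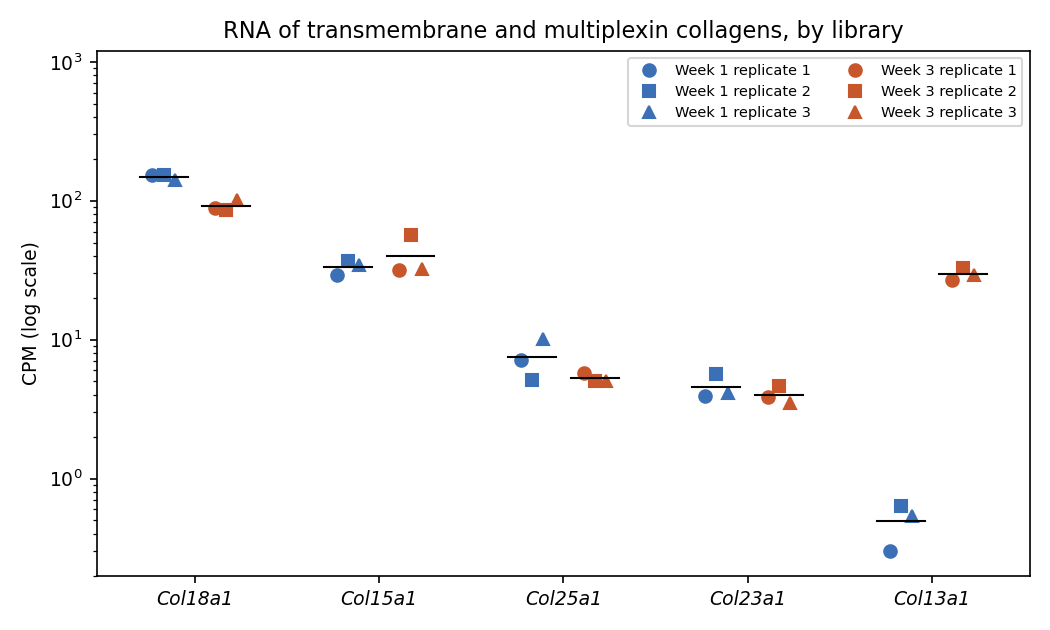
CPM (log axis) of the 5 collagen genes in each of the 6 RNA-seq libraries; symbols mark the replicate number, colours the week, and black lines the mean of 3 libraries. Col13a1 sits at 0.302 to 0.638 CPM at Week 1 and 26.8 to 33.0 CPM at Week 3, Col18a1 is lower in every Week 3 library, and the other 3 genes overlap between weeks.

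Levels were compared between genes per kilobase of exon (RPKM, from the same CPM). At Week 1 the order was Col18a1 with 26.46 ± 1.35, Col15a1 with 6.30 ± 0.71, Col25a1 with 1.00 ± 0.33, Col23a1 with 0.805 ± 0.165 and Col13a1 with 0.156 ± 0.055 RPKM (SD, n = 3). Only the neighbours Col25a1 and Col23a1 overlapped there. At Week 3 Col18a1 still led with 16.36 ± 1.44 RPKM. Col13a1, with 9.38 ± 0.99 RPKM, and Col15a1, with 7.53 ± 2.66 RPKM, followed and overlapped, the libraries of Col13a1 lying at 8.48 to 10.4 and those of Col15a1 at 5.93 to 10.6 RPKM. Col25a1 (0.709 ± 0.058) and Col23a1 (0.706 ± 0.106 RPKM) came last and overlapped.

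The shares of the genes in the set differed between weeks. Col18a1 held 79.0, 75.4 and 74.2% of the 5 genes' summed RPKM in replicates 1, 2 and 3 of Week 1, and 49.8, 40.5 and 52.1% at Week 3. Col13a1 held 0.276, 0.562 and 0.508% at Week 1 and 26.8, 27.6 and 26.7% at Week 3. The share of Col13a1 at Week 3 varied little among replicates, while that of Col18a1 was lowest in replicate 2, the library with the high Col15a1.

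**Figure D2:**
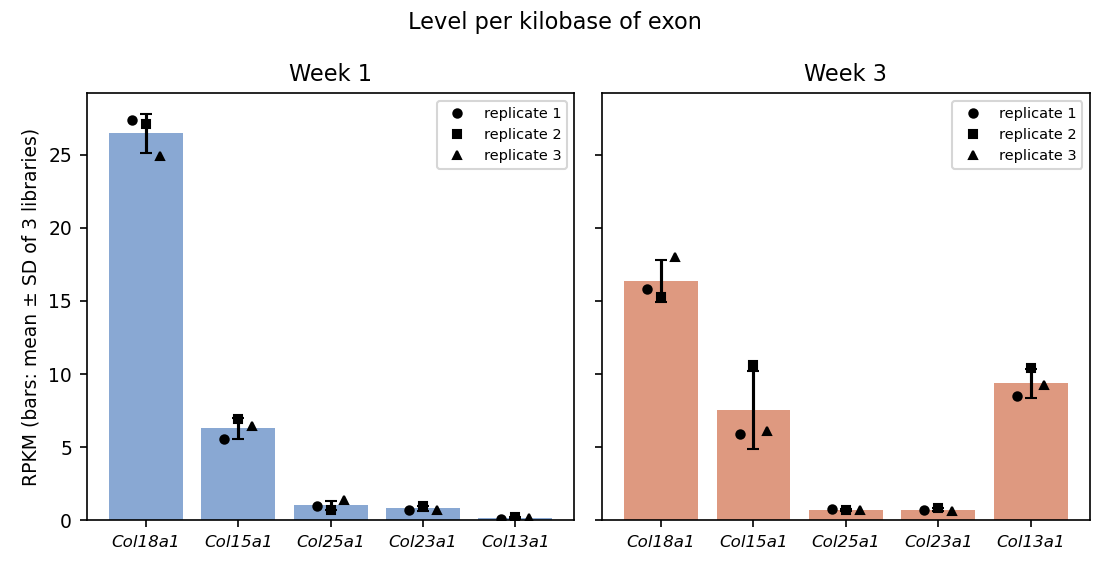
Level per kilobase of exon (RPKM) of the 5 genes at Week 1 (left) and Week 3 (right); bars are the mean and error bars the SD of 3 libraries, and points are the libraries. Col18a1 leads at both weeks, and Col13a1 goes from last (0.156 RPKM) to a level that overlaps Col15a1 (9.38 against 7.53 RPKM).

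Markers of cell types in which these genes are known to be made were read in the same libraries. Of 10 endothelial markers, 8 averaged under 1 CPM and Cldn5 was at 0 in all libraries. Their summed level was 7.09 to 10.3 CPM at Week 1 and 5.86 to 6.93 CPM at Week 3. Of 9 skeletal muscle markers, Myod1, Myf5 and Pax7 were at 0 throughout, and the sum was 50.6 to 71.2 and then 21.1 to 23.4 CPM, most of it Ttn. The neuron and Schwann cell markers summed to 24.1 to 34.1 and then 50.9 to 59.6 CPM, most of it Mbp, with Snap25, Syt1 and Rbfox3 under 0.3 CPM in every library. The sum of that list was higher in all Week 3 libraries, as was Col13a1, and its part in that result was not tested. The 8 pericyte and smooth muscle markers summed to 329 to 432 and then 759 to 846 CPM, most of it Cspg4, with Rgs5 and Kcnj8 near 0. Of these markers, Cspg4, Pdgfrb and Acta2 rose, and Notch3 fell from a mean of 41.0 to 25.4 CPM (edgeR). Their part was not tested either. The 6 macrophage markers summed to 65.1, 48.7 and 21.9 CPM in replicates 1, 2 and 3 of Week 1 and to 48.1, 22.3 and 7.93 CPM at Week 3. The weeks overlapped, and the sum was lower at Week 3 in each same-numbered pair. Lyz2 was the largest part of the sum in every library. Ptprc, Adgre1 and Lyz2 were lower at Week 3 in each pair, and Csf1r and Itgam were higher in replicate 1 only. C1qa was higher in each pair, going from 0.544, 0.290 and 0.270 CPM to 4.45, 1.55 and 0.488 CPM. With the replicate number as a block in the edgeR fit, 3 of the markers fell, against 1 without it.

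Adipocyte markers moved with replicate number. The 8 genes summed to 98.2, 325 and 128 CPM in replicates 1, 2 and 3 of Week 1 and to 77.1, 237 and 100 CPM at Week 3. Replicate 2 was highest in both weeks, as it was for Col15a1 (36.9 and 56.4 CPM) and for Col23a1. No adipocyte marker passed between weeks in the edgeR test, and 5 fell when the replicate number was a block in the fit. Their part in the high Col15a1 level of Week 3 replicate 2 was not tested.

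Each gene's 3 nearest neighbours among tested genes of at least 1 CPM were taken by the Euclidean distance between log2 CPM profiles over the 6 libraries, each centred on its mean. Nearest to Col13a1 were Phex (distance 0.595), an endopeptidase-like protein of bone mineralisation, the RNA gene BC055402 (0.673) and Ibsp (0.764), bone sialoprotein. Phex had 1.57, 1.63 and 2.16 CPM at Week 1 and 82.5, 111 and 89.5 CPM at Week 3. Ibsp had 246 to 286 CPM and then 10200 to 12600 CPM, and BC055402 had no read at Week 1 and 73, 133 and 83 reads at Week 3. For these profiles a prior count of 2 was added before the log. It weighs most where reads are few, as for Col13a1 and BC055402 at Week 1. The fitted log2 change of BC055402 was 9.55, against 5.89 for Col13a1. Like Col13a1, Phex and BC055402 were highest in Week 3 replicate 2, whereas Ibsp was highest in replicate 3. Nearest to Col18a1 were Dcun1d2 (0.0752), Cpeb1 (0.124) and Fnip2 (0.125), each lower in all Week 3 libraries. Nearest to Col15a1 were Atp8b1 (0.167), Mir335 (0.215) and Snord2 (0.217), all highest in Week 3 replicate 2. Col23a1 was nearest to Rnf150, Tmod2 and Fxyd4 (0.135 to 0.137), and Col25a1 to Dnaaf3, Erbb3 and Sag (0.253 to 0.279). With Pearson correlation in place of distance, 1 of 3 neighbours was shared for Col15a1 and for Col18a1, and 0 of 3 for the other genes.

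Col18a1 has a pair of known promoters, an upstream one for a short protein and a downstream one for proteins with a longer amino end. The transcript rows of the 2 starts shared 4881 exon bases and nearly all reads. The downstream row had 747 exon bases of its own and the upstream row 163. At Week 1 the downstream row exceeded the upstream row by 17, 20 and 10 reads, and at Week 3 by 37, 61 and 42 reads. As a share of the downstream row this was 0.667, 0.762 and 0.481%, then 2.73, 3.78 and 2.53%. The net difference was larger in every Week 3 library although the gene's total was lower in every one. It is a net value: reads in the exon bases of either start alone were not counted separately here.

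The first exon of the downstream start (chr10:77112959-77113705) held ERRBS cytosines and was examined after values had been seen. The coding stretch that carries them is shown, minus strand, chr10:77113391-77113561, with the 6 measured CpGs in capitals.
Col18a1 downstream first exon: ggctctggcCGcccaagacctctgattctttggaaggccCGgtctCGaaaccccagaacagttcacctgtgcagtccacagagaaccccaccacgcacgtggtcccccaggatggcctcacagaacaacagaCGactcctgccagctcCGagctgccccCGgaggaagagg

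At the 2 cytosines covered in all 6 libraries, mean methylation was 52.4, 66.7 and 55.6% at Week 1 and 75.7, 75.7 and 66.2% at Week 3. The highest library of Week 1 was just above the lowest of Week 3. The means were 58.2 ± 7.5% and 72.5 ± 5.5% (SD, n = 3), a difference of 14.3 points with an exact two-sided permutation p of 0.2, where 0.1 is the smallest that 3 against 3 can give. Over 7 cytosines covered in the 5 libraries other than Week 3 replicate 2, the means were 57.4, 65.0 and 62.1%, then 75.0 and 71.5%, a difference of 11.8 points in which the weeks did not overlap and for which no test was run. Coverage was 13 to 69 reads per cytosine. The promoter window of the downstream start held too few shared cytosines (under 3) to be tested.

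**Figure D3:**
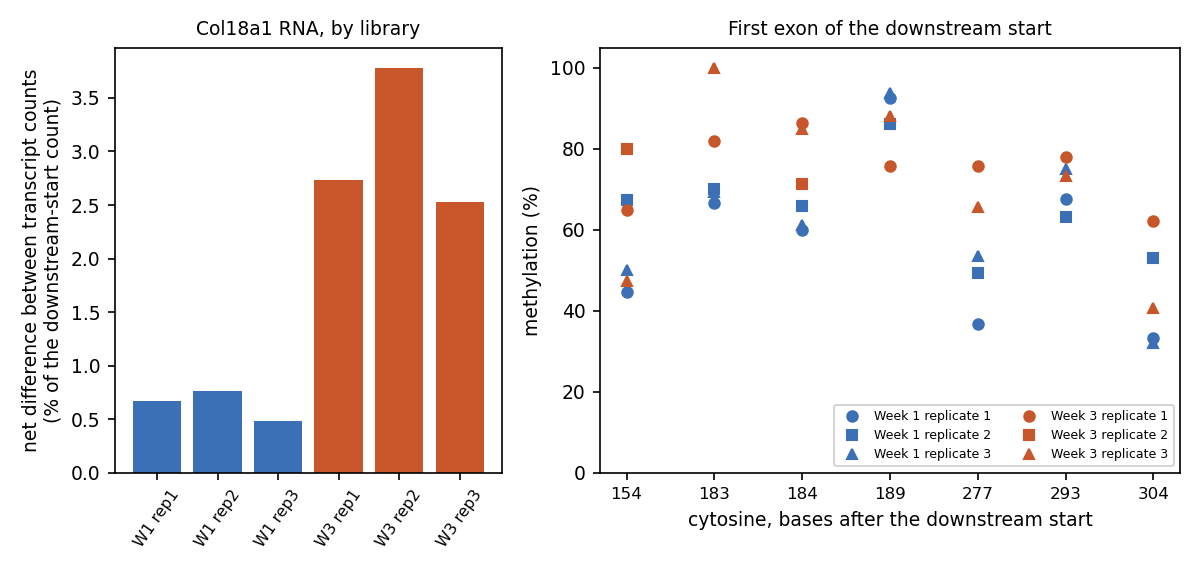
Left, the net difference between the 2 Col18a1 transcript counts as percent of the downstream-start count, by library. Right, methylation (%) of each measured cytosine in the downstream first exon by its distance in bases from that start; colours are weeks and symbols replicates. The net difference is 0.481 to 0.762% at Week 1 and 2.53 to 3.78% at Week 3, and single cytosines overlap between weeks at several positions.

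Promoter methylation was measured from 1000 bases before to 500 after each start, over cytosines with at least 10 reads in all 6 libraries. Over all 13806 promoters tested, 0 passed (0.0%) in limma at an adjusted p under 0.05, and 399 (2.89%) had an unadjusted p under 0.05. An edgeR fit of the summed reads also called 0, with 518 unadjusted. At the cytosines measured, all 5 collagen promoters were almost unmethylated at both weeks. None passed in either test, and in none were the weeks free of overlap, against 8.97% of all promoters. At Col15a1, Col25a1 and the upstream start of Col18a1, every measured cytosine lay after the start, so the bases before it were not read.

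At Col13a1, 7 cytosines lying 154 to 194 bases before the start, within the sequence printed above, were measured. Their mean was 0% in all 3 libraries of Week 1 and 4.61, 4.40 and 0% at Week 3. In Week 3 replicate 1 each of the 7 sites had 1 methylated read of 20 to 22, and in replicate 2 a single site had 30.8% of 13 reads. The difference of 3.00 points had an adjusted p of 0.823 in limma and an exact permutation p of 0.4. The tile just inside the gene, with 22 cytosines, was at 1.45 ± 0.46% and 1.64 ± 2.09% (SD, n = 3). No difference beyond the spread of the libraries was found between Week 1, with 5 to 11 RNA reads per library, and Week 3, with 410 to 617.

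The promoters of the other genes were likewise low. Col23a1 (43 cytosines) had 1.06 ± 0.77% and 2.95 ± 2.78% (SD, n = 3; limma adjusted p = 0.823), with 6.15% in Week 3 replicate 2 and at most 1.62% in the other libraries. Col25a1 (10 cytosines) had 1.38 ± 0.53% and 2.08 ± 1.98% (limma adjusted p = 0.888), again highest, at 4.35%, in Week 3 replicate 2. Its cytosines lay 125 to 469 bases after the start. Col15a1 (12 cytosines) had 0.111 ± 0.193% and 0.198 ± 0.344% (limma adjusted p = 0.920). Its cytosines lay 280 to 366 bases after the start, outside the sequence printed above, whose CpGs were not measured. The upstream start of Col18a1 (10 cytosines) had 1.01 ± 0.97% and 1.41 ± 0.50% (limma adjusted p = 0.904), measured 7 to 490 bases after that start. A higher mean at Week 3 in all 5 was within the spread each time and depended on single libraries or on the window at Col23a1, Col25a1, Col15a1 and Col18a1.

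Gene bodies, the spans of the highest-count transcripts outside the promoter window, were methylated to different degrees. That of Col18a1 began after its downstream start and left out the stretch between its starts. Over 12722 bodies, 0 passed in limma (0.0%; 603 at an unadjusted p under 0.05) and 0 in the edgeR fit (497 unadjusted). Col18a1 was the highest, with 87.6 ± 0.8% at Week 1 and 86.0 ± 3.4% at Week 3 over 42 cytosines (SD, n = 3; limma adjusted p = 0.914). Col15a1 (45 cytosines; 62.1 ± 1.9% and 62.5 ± 4.8%, limma adjusted p = 0.984), Col23a1 (84 cytosines; 61.7 ± 1.7% and 60.1 ± 1.9%, limma adjusted p = 0.897) and Col25a1 (32 cytosines; 60.0 ± 1.6% and 59.0 ± 1.1%, limma adjusted p = 0.914) lay close together. Col13a1 was the lowest, with 45.5, 45.4 and 46.4% at Week 1 and 46.1, 44.5 and 45.9% at Week 3 over 109 cytosines (limma adjusted p = 0.975). Of its 109 cytosines, 22 lay within 1000 bases of the start and were near 0%. With all bodies built alike, from 1000 bases past the outermost start, a choice made after values had been seen, the levels at Week 1 and Week 3 were 57.0 and 56.6% at Col13a1, 60.0 and 59.0% at Col25a1, 67.5 and 65.8% at Col23a1, 72.8 and 73.4% at Col15a1 and 78.6 and 78.0% at Col18a1. Col13a1 was then still the lowest, but close to Col25a1.

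Away from its start, Col13a1 also had separate tiles of low methylation in its introns. In 1-kb tiles with at least 3 shared cytosines, 53 tiles lay over the 5 genes and their promoters, 13 of them at Col13a1. Of 11 Col13a1 tiles over 5 kb from any transcript start, 5 were under 20% methylated (45.5%) in the mean of the 6 libraries. Over all genes, 1707 of 21071 such tiles were under 20% (8.1%), and the median tile was at 81.6%. Among the other collagens it was 1 of 7 at Col25a1, 1 of 9 at Col18a1, 0 of 11 at Col23a1 and 0 of 5 at Col15a1. The 5 low tiles of Col13a1 were centred 35.6, 41.6, 50.6, 72.6 and 99.6 kb inside the gene. At Week 1 their means were 14.7, 9.58, 15.6, 19.0 and 6.32%, and at Week 3 they were 23.2, 13.8, 8.42, 15.4 and 9.16%. Tiles between them, at 54.6 and 62.6 kb, were at 72.9 and 81.4% at Week 1. The low tiles were present at Week 1, when Col13a1 RNA was close to absent. Their means were higher at Week 3 in 3 and lower in 2, and no difference passed in limma. Only at the tile 35.6 kb inside did the weeks not overlap, as at 10.3% of all tiles. It had 14.0, 14.9 and 15.3% and then 22.6, 31.7 and 15.5% (limma adjusted p = 0.900, exact permutation p = 0.1). The low tiles were singled out after their values had been seen.

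Over all 71704 tiles, 0 passed in limma (0.0%; 3178 at an unadjusted p under 0.05) and 0 in the edgeR fit (2733 unadjusted). Of the 53 tiles at the 5 genes, 0 passed, 1 had an unadjusted p under 0.05 in limma against 4.43% of all tiles, and 4 did not overlap between weeks against 10.3%. The tile with the smallest p was in an intron of Col25a1, chr3:130283001-130284000, with 3 cytosines at 4.46, 5.95 and 9.68% at Week 1 and 3.32, 0 and 0% at Week 3 (limma unadjusted p = 0.0114, adjusted p = 0.900, exact p = 0.1). All its values were low, and the weeks did not overlap. An intron tile of Col23a1, chr11:51410001-51411000, had 24.4, 34.9 and 28.0% and then 30.1, 5.95 and 12.9% (limma adjusted p = 0.900). One in Col18a1 between its starts, chr10:77124001-77125000, had 94.2, 93.5 and 92.3% and then 96.6, 100 and 95.0% (limma adjusted p = 0.900). At Col15a1 the smallest p fell in chr4:47233001-47234000, with 32.5 ± 6.7% and 27.6 ± 6.9% (SD, n = 3; limma adjusted p = 0.901).

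**Figure D4:**
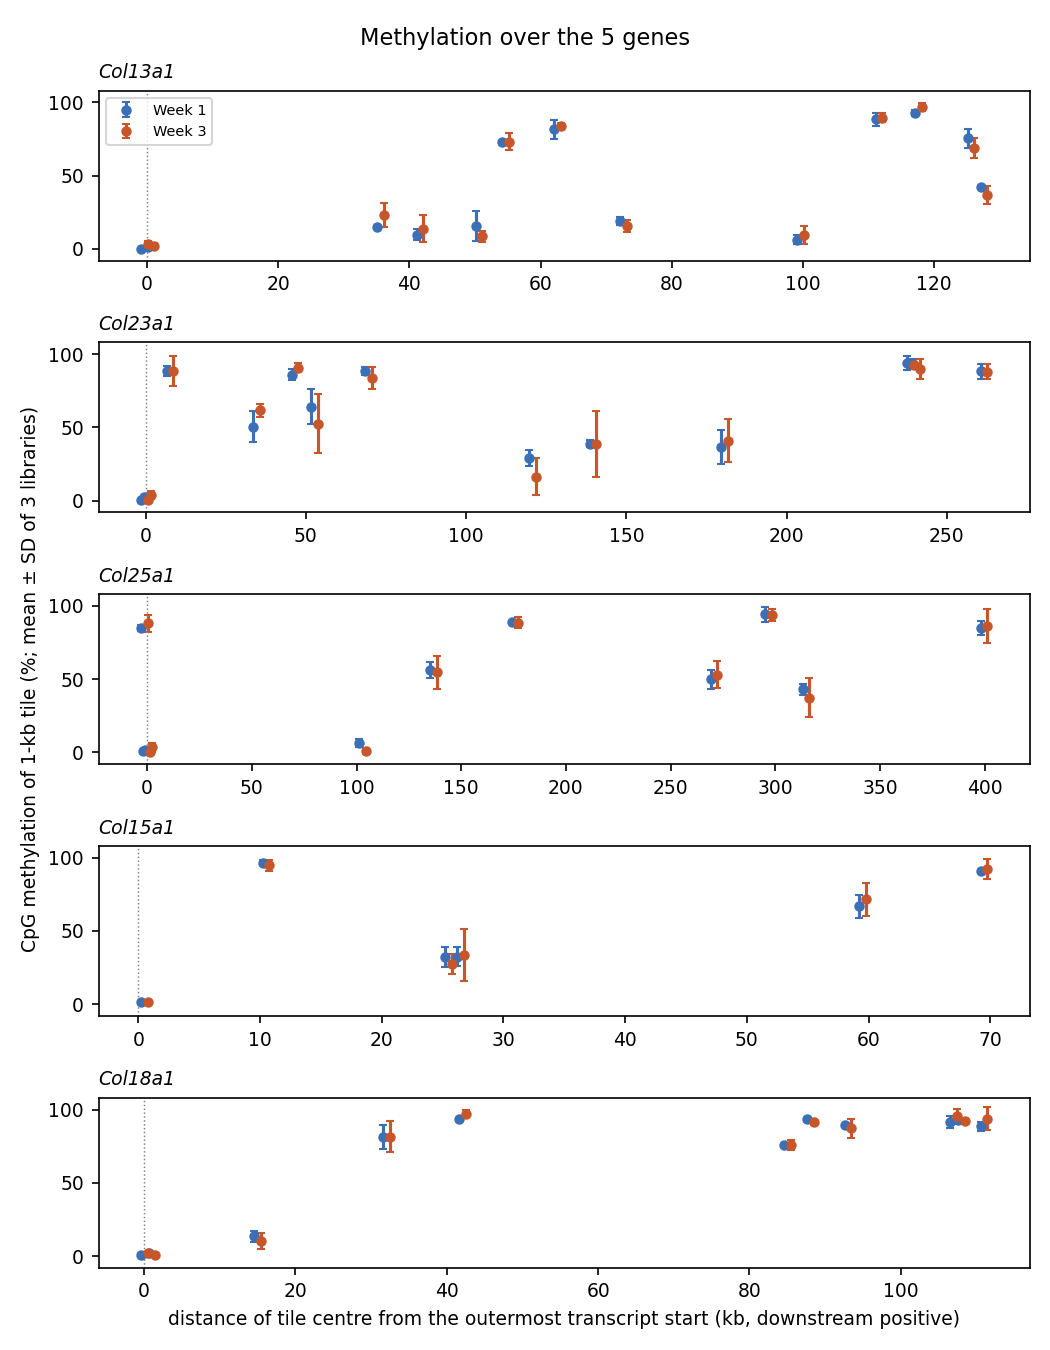
CpG methylation (%) of 1-kb tiles along each gene by the distance of the tile centre from the outermost transcript start in kb; points are the mean and bars the SD of 3 libraries, with the weeks drawn slightly apart sideways. Tiles at the starts are near 0%, and Col13a1 has 5 intronic tiles below 25% at both weeks, with tiles above 70% among and beyond them.

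Genes of proteins that act with these collagens were read from 6 lists. The threshold in each case is an adjusted p under 0.05 in edgeR over all tested genes. Of all 14323 tested genes, 37.4% passed it, 19.7% higher and 17.8% lower, and their median log2 change was −0.01. The count in each list below stands beside those shares. Standard errors (SE) of log2 changes are approximate. Among other membrane proteins with a collagen domain, 5 of 7 tested passed, 3 higher and 2 lower, with a median log2 change of 0.28. Colec12, a scavenger receptor, rose from 275.9 ± 34.7 to 489.0 ± 24.5 CPM (SD, n = 3; log2 0.83, SE 0.09). Scara5, a ferritin receptor, rose from 6.07 ± 1.63 to 12.1 ± 3.3 CPM, and Eda, the ectodysplasin ligand, from 6.47 ± 0.44 to 8.51 ± 0.74 CPM. Msr1, a macrophage scavenger receptor, fell from 3.27 ± 0.57 to 1.34 ± 0.78 CPM. Msr1 rests on 8 to 67 reads per library, and the list's count was 2 without Week 1 replicate 1 or without Week 3 replicate 2, and 3 without Week 1 replicate 3, without Week 3 replicate 3 or in DESeq2. Scara3 (106.7 ± 4.6 and 112.3 ± 3.1 CPM) and Gldn (13.3 ± 4.7 and 16.1 ± 1.6 CPM) did not pass, though Gldn did without Week 1 replicate 2.

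Of 7 sheddases and convertases, 1 rose and 1 fell (median log2 0.15). Pcsk6, a convertase that sits in the matrix, rose from 129, 103 and 138 CPM to 537, 637 and 537 CPM (4.63-fold, log2 2.21, SE 0.12, edgeR adjusted p = 6.93e-06). Its 3 libraries of Week 3 were all above those of Week 1. Adam9, a membrane metalloprotease, fell from 139.1 ± 21.1 to 104.2 ± 3.9 CPM (SD, n = 3). Furin, the convertase known to cut the transmembrane collagens, had 57.6 ± 10.4 and 70.1 ± 4.3 CPM and did not pass (edgeR adjusted p = 0.0998), and Adam17 had 120.8 ± 10.3 and 123.7 ± 6.2 CPM. With the replicate number as a block, 5 of the 7 passed, 3 higher and 2 lower, Furin among them (edgeR adjusted p = 0.00772). Without Week 1 replicate 1 Furin also passed (edgeR adjusted p = 0.0101). Exons of Furin and Adam17 overlap exons of genes on the other strand, whose reads cannot be told apart.

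Of 8 tested proteases that release endostatin-type fragments, 3 rose and 3 fell (median log2 −0.25). Mmp13, the collagenase of hypertrophic cartilage, rose from 230.4 ± 11.3 to 923.4 ± 177.8 CPM (SD, n = 3; 4.01-fold). Mmp2, a gelatinase, rose from 661.8 ± 47.1 to 926.7 ± 71.8 CPM, and Mmp14, a membrane-bound collagenase, from 179.6 ± 11.3 to 257.1 ± 31.0 CPM. Mmp12, a macrophage elastase, fell from 43.5, 104 and 42.1 CPM to 9.16, 13.2 and 6.71 CPM (edgeR adjusted p = 0.016). It missed the threshold without any one library of Week 3 (edgeR adjusted p = 0.0506 to 0.0597). The summed macrophage markers were lower at Week 3 in each same-numbered pair, as given above, though C1qa was higher. The part of these markers was not tested. Ctsl, the cathepsin known to cut collagen XVIII, had 466.8 ± 101.0 and 392.6 ± 23.9 CPM, and Mmp3 had 94.8 ± 48.0 and 57.4 ± 11.9 CPM. Neither passed. The list's count was 3 without Week 3 replicate 1 or replicate 2, all 3 of them higher.

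Of 16 basement membrane zone partners, 6 rose and 2 fell (median log2 0.21). Lama2, a laminin chain, rose from 1.93, 1.33 and 1.62 CPM to 8.77, 16.4 and 6.65 CPM (6.55-fold, log2 2.71, SE 0.40, edgeR adjusted p = 0.00181), and was highest in Week 3 replicate 2, as was Col15a1. Sparc, a collagen-binding matrix protein, rose from 7411 ± 597 to 12510 ± 1296 CPM (SD, n = 3), Col4a2, a chain of collagen IV, from 97.2 ± 6.6 to 155.0 ± 17.6 CPM, and Lamb2, another laminin chain, from 237.4 ± 25.8 to 305.9 ± 10.0 CPM. Hspg2, the proteoglycan perlecan, had 973, 377 and 850 CPM and then 1440, 1230 and 1400 CPM. The weeks did not overlap, but Hspg2 did not pass (edgeR adjusted p = 0.129) with the low Week 1 replicate 2, and passed without it (log2 0.57, edgeR adjusted p = 0.000333). Nid2, a nidogen that joins basement membrane networks, had 330.0 ± 92.9 and 382.4 ± 24.2 CPM and did not pass. Exons of Col4a2 overlap those of Col4a1, and exons of Nid2 those of Rtraf, on the other strand.

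Of 15 tested collagen and endostatin receptors, 5 rose and 2 fell (median log2 0.01), and Itga10 was not analysed here. Gpc1, a glypican that can bind endostatin, rose from 95.4, 87.5 and 81.7 CPM to 322, 396 and 340 CPM (4.00-fold, log2 2.0, SE 0.09, edgeR adjusted p = 6.43e-07). The weeks were far apart. Ptprd, a receptor-type phosphatase, rose from 51.7 ± 6.5 to 118.8 ± 14.7 CPM (SD, n = 3), and Itga11, a collagen-binding integrin chain, from 121.8 ± 3.6 to 169.2 ± 14.2 CPM. Itgb3, an integrin beta chain, fell from 90.6 ± 0.7 to 55.9 ± 3.5 CPM. Ddr2, a collagen receptor kinase whose exons overlap those of 3110045C21Rik, had 577.4 ± 18.2 and 548.4 ± 29.1 CPM, and Itgav had 439.6 ± 5.2 and 402.1 ± 6.3 CPM. Neither passed, though the libraries of Itgav did not overlap. Without Week 3 replicate 3 the list's count was 4.

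Of 14 genes of collagen folding and hydroxylation, 8 rose and 1 fell (median log2 0.19). Colgalt2, a collagen galactosyltransferase, rose from 44.1 ± 4.7 to 102.1 ± 4.1 CPM (SD, n = 3; 2.32-fold, log2 1.21, SE 0.08). Serpinh1, the collagen chaperone, rose from 2076 ± 174 to 2780 ± 100.1 CPM, and Crtap, a part of the prolyl 3-hydroxylase complex, from 116.5 ± 1.0 to 149.0 ± 5.8 CPM. Ppib, a prolyl isomerase whose exons overlap those of Snx22, rose from 326.1 ± 5.4 to 392.4 ± 17.3 CPM. P4hb, the beta subunit of prolyl 4-hydroxylase, had 4095 ± 11 and 3792 ± 180 CPM, and P4ha1, an alpha subunit, had 1614 ± 43 and 1795 ± 29 CPM. Neither passed in edgeR, and P4ha1 passed in DESeq2 (adjusted p = 0.0348).

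**Figure D5:**
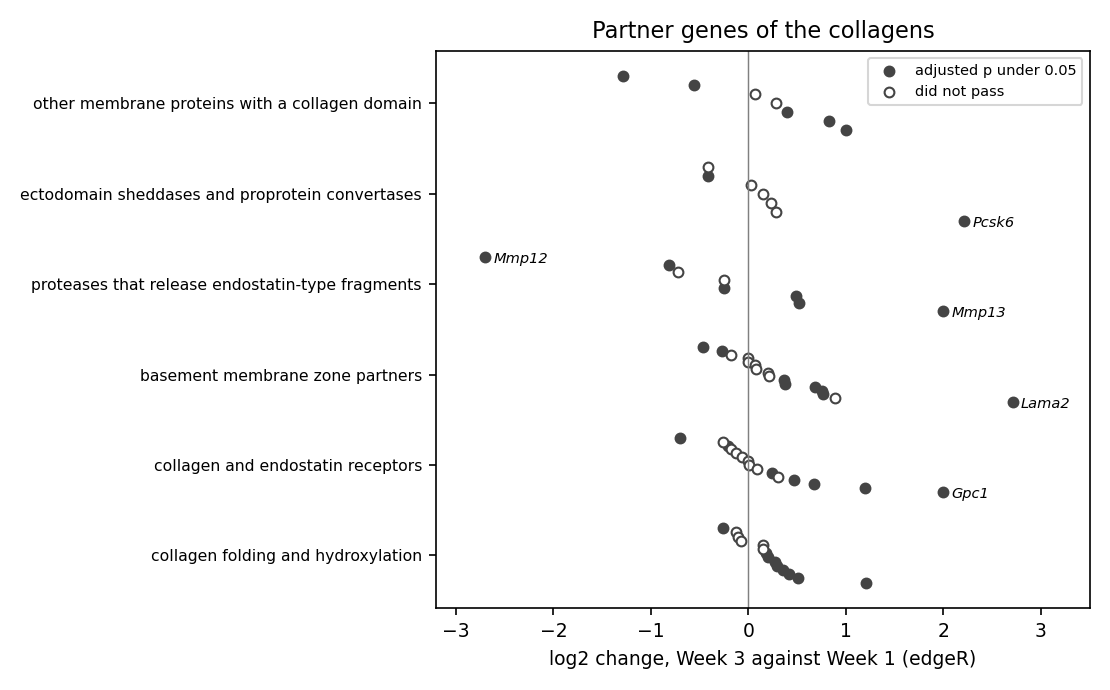
Log2 change at Week 3 against Week 1 of tested genes in 6 lists of proteins that act with the collagens; each point is 1 gene, filled where the edgeR adjusted p is under 0.05, and genes beyond 1.9 either way are named. Pcsk6, Mmp13, Lama2 and Gpc1 lie at 2 or more, Mmp12 at −2.70, and most other genes between −1 and 1.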

How the data were processed

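RNA-seq and ERRBS were read from 6 libraries each, 3 per week. The authors deposited raw counts of reads for RefSeq transcripts. CASAVA 2.17, STAR, featureCounts and mm10 are named per the submitters' processing notes, and Flexbar trimming per the series description. For the aligner and counter, versions and strand setting were not given in the sources used here, and the labels' library protocol marks no strand. For ERRBS the deposited files list, per the file headers, coverage (a count of reads) and the percent of C and T per cytosine, from 10 reads upward; the notes name Bismark.

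Of 30048 transcripts, 394 had no symbol (1.53% of counts) and were kept. A gene's count was that of its transcript with the highest total. The gene test was edgeR 4.0.16 under R 4.3.3 (TMM scaling, filterByExpr, robust quasi-likelihood test, Benjamini-Hochberg adjustment). CPM used TMM-scaled library sizes, and RPKM divided CPM by exon kilobases. The approximate SE was the log2 change over the square root of F. ERRBS cytosines shared by all 6 libraries (724670, 100% at a CpG of GRCm38.p6) were averaged per region of at least 3 and tested with limma 3.58.1 (trend, robust). Scripts were tested on simulated data. DESeq2 1.42.0 was an alternative. Same-numbered RNA libraries of both weeks deviated together (r = 0.259, 0.376 and 0.194 across genes), so a fit with the replicate number as a block was run.

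The members and lists were chosen with earlier results of these data known. Named in each list were up to 4 genes with the smallest adjusted p and up to 2 abundant genes that did not pass, with 3 profile neighbours per collagen, and each collagen's promoter, body and tile of smallest p. Marker lists: chondrocyte, hypertrophic chondrocyte, osteoblast, endothelial, pericyte and smooth muscle, skeletal muscle, neuron and Schwann cell, adipocyte, macrophage (Cd68 not analysed here).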

Additional observations from a re-analysis of the deposited data

How the results depend on the processing

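Across 11 other settings of the RNA test (DESeq2 size factors, no filter on low counts, DESeq2's Wald test, a replicate block, the lowest-count transcript, and each library left out), the number of genes called ranged from 3980 to 6306, against 5361; the block gave 6306 and leaving out 1 library 3980 to 5762. Col13a1, Col18a1, Col23a1 and Col25a1 kept the sign of their log2 change under all 11, and Col15a1 did except without Week 3 replicate 2 (−0.07). Leaving out 1 library gave 2 to 4 passing genes in the list of membrane proteins with a collagen domain, 3 to 5 for endostatin-type proteases and 4 to 8 for receptors. DESeq2's Wald test gave 3 for the membrane proteins, and the replicate block gave 5 for sheddases; it changed the call of no other named gene than Furin. Adam17 had log2 changes of −0.00551 without Week 1 replicate 3 and −0.00553 without Week 3 replicate 2, and up to 0.106 without another library, and Nid2 ranged from −0.00522 without Week 1 replicate 2 to 0.346. Eda missed the threshold in DESeq2 (adjusted p = 0.0925) and without any of 4 libraries, and Msr1 without any of 3. The cause was not tested.

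For methylation, the difference at Week 3 changed sign in the Col13a1 body with summed reads (0.419 points), the Col23a1 promoter in a window of 500 before to 200 after the start (−0.160), the Col25a1 promoter at a coverage of at least 20 (−0.655) and in that window (−1.10), and the Col15a1 body at that coverage (−0.367) and with summed reads (−0.898). Leaving out 1 library gave −0.554 to 0.252 points in the Col13a1 body, −0.426 to 1.40 in the Col25a1 promoter, −0.111 to 0.198 in the Col15a1 promoter, −2.15 to 2.52 in the Col15a1 body and −0.102 to 0.864 in the Col18a1 promoter. With bodies built alike from 1000 bases past the outermost start (added after seeing the data), all 5 body differences kept their sign. No member region passed under any setting that was tested; over all promoters, 23 passed without Week 1 replicate 2 and 0 under the others. Same-numbered ERRBS libraries did not deviate together beyond r = 0.0306 across tiles. Noise in tiles of few cytosines could hide a shared origin, so whether they share more than a number is not known. The replicate block called 0 regions of each kind, as did the fit without it. With 17 reads of median coverage in the shallowest library, differences of a few points at single cytosines were not detectable at this depth.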
